A study of Mus musculus with 24 samples.

Results

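Spleens of B10.BR mice taken 24 hours after total body irradiation were compared between 900 cGy, the highest dose given to this strain, and 300 cGy, the lowest dose above 0. The comparison rests on 6 of the 24 arrays of the series, chosen by their labels alone, 3 at 900 cGy and 3 at 300 cGy. Each array carried total RNA of whole splenocytes pooled from 3 mice, so that the spread between arrays is a spread between pools. The series calls 900 cGy a myeloablative condition, that is, a dose that destroys the bone marrow. B10.BR is an inbred mouse strain, and both groups were irradiated with an X-ray cabinet and differed, as far as the labels say, in dose alone. Age and sex of the mice are not given in the sources used here. The series also holds B10.BR spleens at 500 and 0 cGy and BALB.K spleens at 800, 400, 300 and 0 cGy, again 3 arrays each. All 29531 features, here genes or single unnamed probes, entered the tests.

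Ionising radiation breaks DNA, and the transcription factor p53 answers with genes that halt the cell cycle (Cdkn1a) or start cell death (Bax). Lymphocytes and dividing blood precursors are among the most sensitive cells of the body, whereas macrophages, endothelium and fibroblasts survive far better. The mouse spleen holds B cell follicles, T cell zones and a red pulp in which macrophages recycle red cells and new red cells are made. A gene whose level at 900 cGy lies well beyond its level at 300 cGy was still moving with dose, and one whose level is the same at both doses had reached by 300 cGy the level it has at 900 cGy.

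Signals are given on a log2 scale as each probe's intensity relative to its array's 75th percentile, so that 0 is that percentile and levels of different genes are not to be compared. Differences are log2 values, 900 minus 300 cGy, ± the standard error of a limma fit, and the words rose and fell are kept for genes with an adjusted p under 0.05. Of the 29531 features 6610 (22.4%) passed that test, 3431 of them (11.6%) higher and 3179 (10.8%) lower at 900 cGy. A difference of at least 2-fold was found for 323 of the higher features (1.09%) and 583 of the lower ones (1.97%). A larger class of 17470 features (59.2%) did not pass and had a 95% interval of the difference that lay wholly within 2-fold in either direction, and 5451 (18.5%) did not pass with a wider interval, for which nothing can be said. All counts of list members given below are to be read beside these shares. At 300 against 0 cGy, in the same fit, 12331 features (41.8%) passed. Only 472 (1.6%) passed at 500 against 300 cGy and 1355 (4.59%) at 900 against 500 cGy. Signal moved in 1 direction through the whole series, with all 3 arrays of each dose above all 3 of every lower dose, for 740 features (2.51%), and likewise downwards for 903 (3.06%). All 3 arrays at 900 cGy lay above all 3 at 300 cGy for 21.3% of features, and below them for 17%. Both steps, 900 against 300 and 300 against 0 cGy, use the same 300 cGy arrays, so that a stray value on those arrays enters them with opposite sign.

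Hybridisation slides were shared unevenly. The 300 cGy arrays lay on one slide with the 0 cGy arrays and 500 cGy replicates 1 and 2, and the 900 cGy arrays on another with 500 cGy replicate 3. No slide held both groups, so that a fit with the slide as a block rests mainly on that single 500 cGy array, and the slide and the dose can be told apart only through it. With the slide as a block 2582 features passed in place of 6610. The medians of the 13 lists plotted kept their direction, and those of 5 of the other lists changed sign, with -0.02 against 0.03 for plasma cells, -0.14 against 0.15 for cytokines, -0.09 against 0.06 for immediate early genes, 0.03 against -0.09 for the respiratory chain and -4.7 against 1.41 for exocrine pancreas. Within the first slide the median over the 27 B cell genes differed by -0.73 between 500 and 300 cGy, and within the second by -0.88 between 900 and 500 cGy. The macrophage list showed 0.37 and 0.44 in the same steps. Interferon genes gave 0.25 and -0.41, that is, opposite signs. Scaling on spike-in probes gave fewer calls, 20 B cell, 21 T cell, 12 erythroid, 6 cell cycle and 5 replication genes lower, 6 macrophage, 4 p53 and 4 stroma genes higher, and no endothelium, lysosome or iron recycling gene higher.

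**Figure D1:**
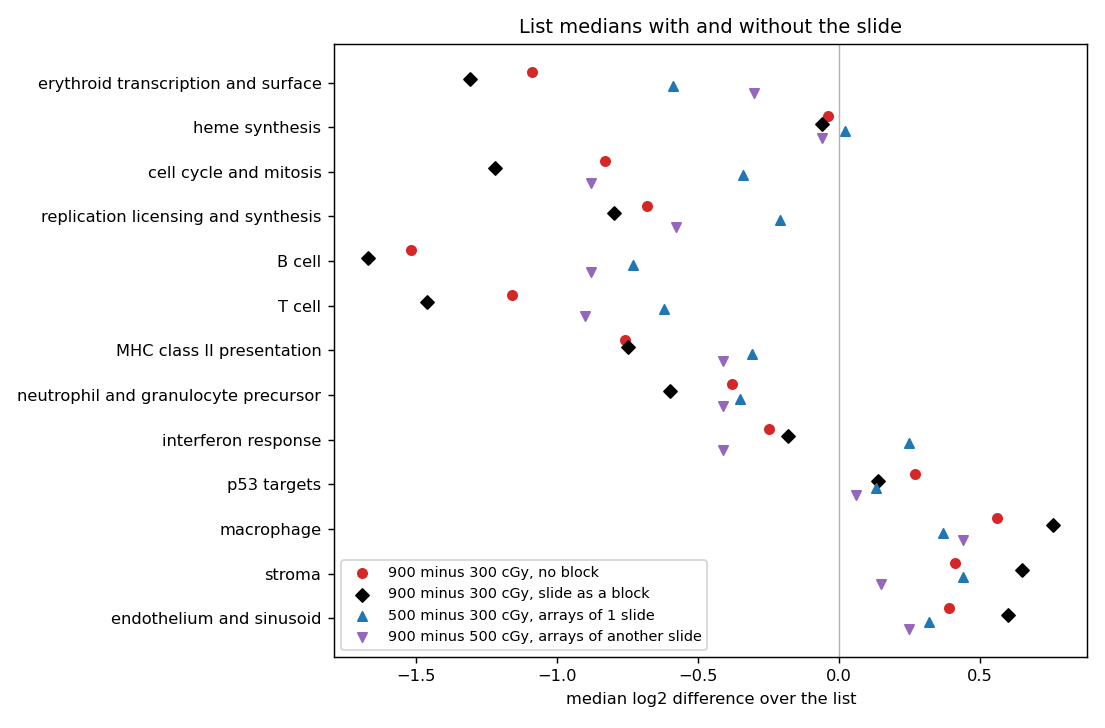
Median log2 difference (x axis) over each of 13 gene lists (y axis) for 900 minus 300 cGy without a block (red circles) and with the slide as a block (black diamonds), and for the steps that lie within a slide, 500 minus 300 cGy (blue) and 900 minus 500 cGy (purple). The B cell list lies at -1.52 without and -1.67 with the block, and the macrophage list at 0.56 and 0.76.

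The tissue was that of spleen on all 6 arrays: the B cell markers Ms4a1 and Cd79a, the T cell markers Cd3e, Cd4 and Cd8a, the red pulp macrophage markers Spic, Vcam1 and Cd5l and the stromal markers Tcf21, Col1a1 and Pdgfrb were well above background throughout. Pancreas transcripts were present as well. The 26 exocrine pancreas genes tested took 0.708%, 0.841% and 1.02% of the array's signal at 900 cGy, against 0.897%, 0.717% and 0.0679% at 300 cGy, so that replicate 3 at 300 cGy stood apart with far less pancreas signal than the others. None of the 26 passed in limma, and 0 had an unadjusted p under 0.05 (median difference 1.41). Fat markers varied too, with Adipoq at 3.23, 0.95 and 1.09 at 900 cGy, against 1.83, 0.5 and -0.15 at 300 cGy, and Plin1 at 1.41, -0.47 and -0.7 at 900 cGy, against 0.27, -1.18 and -1.86 at 300 cGy. Of the muscle markers, Acta1 rose and Ckm had a higher mean at 900 cGy without passing. Acta1 lay between -1.02 and 0.53 at 900 cGy, against -1.73 to -1.07 at 300 cGy, so that its groups did not overlap. Its call was lost under many alternatives, such as only the 6 arrays (1.13, adjusted p = 0.119) or without 900 cGy replicate 2 (0.7, adjusted p = 0.247). Ckm lay between -4.8 and -2.1 at 900 cGy, against -6.37 to -4.77 at 300 cGy, where it was well above background on 2 of 3 arrays. It passed with the slide as a block (4.65, adjusted p = 0.0265). The part of fat and muscle in the results was not tested. A fit with the exocrine share as a covariate was among the alternatives.

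Genes of maturing red cells were among the largest falls. Of 25 erythroid genes 16 fell and 2 rose, with a median of -1.09, where 10.8% of all features fell and their median was 0.05. Against 0 cGy 23 of these genes were already lower at 300 cGy, with a median of -4.25 (23% of all features were lower there). In whole spleen RNA, fewer cells of a type and less RNA per cell cannot be told apart, here and in every list. The other 7 genes all had intervals within 2-fold. Under the slide block 9 fell and 1 rose. The count and the median depend on how dim probes are treated: with normexp background correction 9 fell, with a median of -0.42, and among the 17 genes well above background on all 24 arrays 8 fell, with a median of -0.25.

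Slc4a1, the anion exchanger band 3 of the red cell membrane, was at -2.59, -3.26 and -3.47 at 900 cGy, against 1.35, 0.84 and 0.22 at 300 cGy. The 2 groups were far apart, with the difference at -3.91 ± 0.301, adjusted p = 7.57e-08, which is 15-fold lower. At 0 cGy it was at 5.59, 5.41 and 5.41, and at 500 cGy at -0.53, -0.47 and -0.84, so that each dose lay below the one before. Epb42, which encodes the membrane protein 4.2, was at -8.61, -8.93 and -8.66 at 900 cGy, against -3.79, -4.37 and -4.75 at 300 cGy, a difference of -4.43 ± 0.287. Kel, the Kell blood group protein, was at -6.59, -7.45 and -8.95 at 900 cGy, against -2.8, -3.43 and -3.66 at 300 cGy, a difference of -4.37 ± 0.435. Neither Epb42 nor Kel was well above background on any array at 900 cGy, so that the falls can only be bounded, at least 4.7-fold lower for Epb42 (adjusted p = 8.58e-09) and at least 9.43-fold lower for Kel (adjusted p = 1.39e-06). Ahsp, the chaperone of free alpha globin, fell by 4.76 ± 0.367 and was above background on 1 of the 3 arrays at 900 cGy. Stretches of the Epb42 and Kel promoters are printed because the signal of both was down to background at 900 cGy, and capitals mark AGATAA or its reverse complement, the sequence that GATA factors, the erythroid regulators, are known to bind (RefSeq, GRCm38.p6, 5′ to 3′ along the gene).
Epb42 promoter, chr2:121037008-121037127, minus strand: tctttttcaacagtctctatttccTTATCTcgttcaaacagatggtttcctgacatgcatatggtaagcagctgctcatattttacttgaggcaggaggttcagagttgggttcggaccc
Kel promoter, chr6:41704326-41704445, minus strand: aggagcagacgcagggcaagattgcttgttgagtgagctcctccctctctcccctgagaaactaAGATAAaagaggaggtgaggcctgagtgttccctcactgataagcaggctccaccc
In the 250 bases before the start, AGATAA stood on either strand in 7 of the 18 erythroid genes that have a promoter in the table (38.9%), and in 2771 of all 27025 promoters (10.3%). A match is a run of letters and not a binding site.

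Globin RNA, which outlasts the nucleus in young red cells, was lower but stayed well above background on every array. Hbb-bt, an adult beta globin, was at 4.83, 3.84 and 3.48 at 900 cGy, against 7.79, 7.12 and 6.32 at 300 cGy, and fell by 3.03 ± 0.319 (adjusted p = 2.69e-06). Hba-a1, an alpha globin, was at 6.55, 6.02 and 5.75 at 900 cGy, against 8.42, 7.88 and 7.33 at 300 cGy, and fell by 1.77 ± 0.229. Globin genes have near-identical copies, so that their probes may read more than 1 gene. At 300 against 0 cGy the differences had been -1.42 for Hbb-bt and -4.67 for Slc4a1. Alas2, the first enzyme of erythroid heme synthesis, fell as well (-3.08 ± 0.406, adjusted p = 3.35e-05), and so did Slc25a37, the mitochondrial iron importer (-0.86 ± 0.198, adjusted p = 0.00423). Both lost the call with the slide as a block (adjusted p = 0.0531 for Alas2 and 0.254 for Slc25a37), as did Hba-a1 (0.0571) and Klf1 (0.0727).

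The rest of heme synthesis was lower at 300 cGy and level from there on. Of 12 genes all 12 were lower at 300 than at 0 cGy (median -1.97), while at 900 against 300 cGy the 2 just named passed and the other 10 lay within 2-fold (median -0.04). Neither passed under the block. Some membrane genes had this second pattern too. Ank1 and Icam4 were picked for it, so that their intervals within 2-fold were a condition of the choice. Ank1, the ankyrin that ties the membrane to its skeleton, was at -3.61, -3.77 and -3.46 at 900 cGy, against -3.42, -4.27 and -3.86 at 300 cGy, and at 0.63, 0.25 and 0.31 at 0 cGy. The 900 and 300 cGy arrays of Ank1 overlapped, and the 95% interval of the difference ran from -0.23 to 0.71. Icam4, a red cell adhesion molecule, was at -4.03, -3.71 and -3.53 at 900 cGy, against -3.58, -3.64 and -4.02 at 300 cGy, with an interval from -0.38 to 0.36. Gata1, the master regulator of the lineage, which platelet precursors use as well, was at 2.08, 1.85 and 1.36 at 900 cGy, against 2.11, 1.7 and 1.1 at 300 cGy, and at 3.81, 3.56 and 3.54 at 0 cGy. Klf1, a second erythroid factor that was well above background on 1 of the 3 arrays at 900 cGy, fell (-2.07 ± 0.29, adjusted p = 6.16e-05), while Epor, the erythropoietin receptor, rose (0.6 ± 0.153, adjusted p = 0.00815), and so did Tal1 (0.39 ± 0.133, adjusted p = 0.0414), though not without 900 cGy replicate 1 or 2 or 300 cGy replicate 1 or 3 (adjusted p from 0.0554 to 0.184), not with the slide as a block (0.148) and not with the exocrine share as a covariate (0.0594). With normexp background correction the fall of Klf1 was 0.44 (adjusted p = 0.118). Gata1, Epor and Tal1 were picked after their values were seen.

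**Figure D2:**
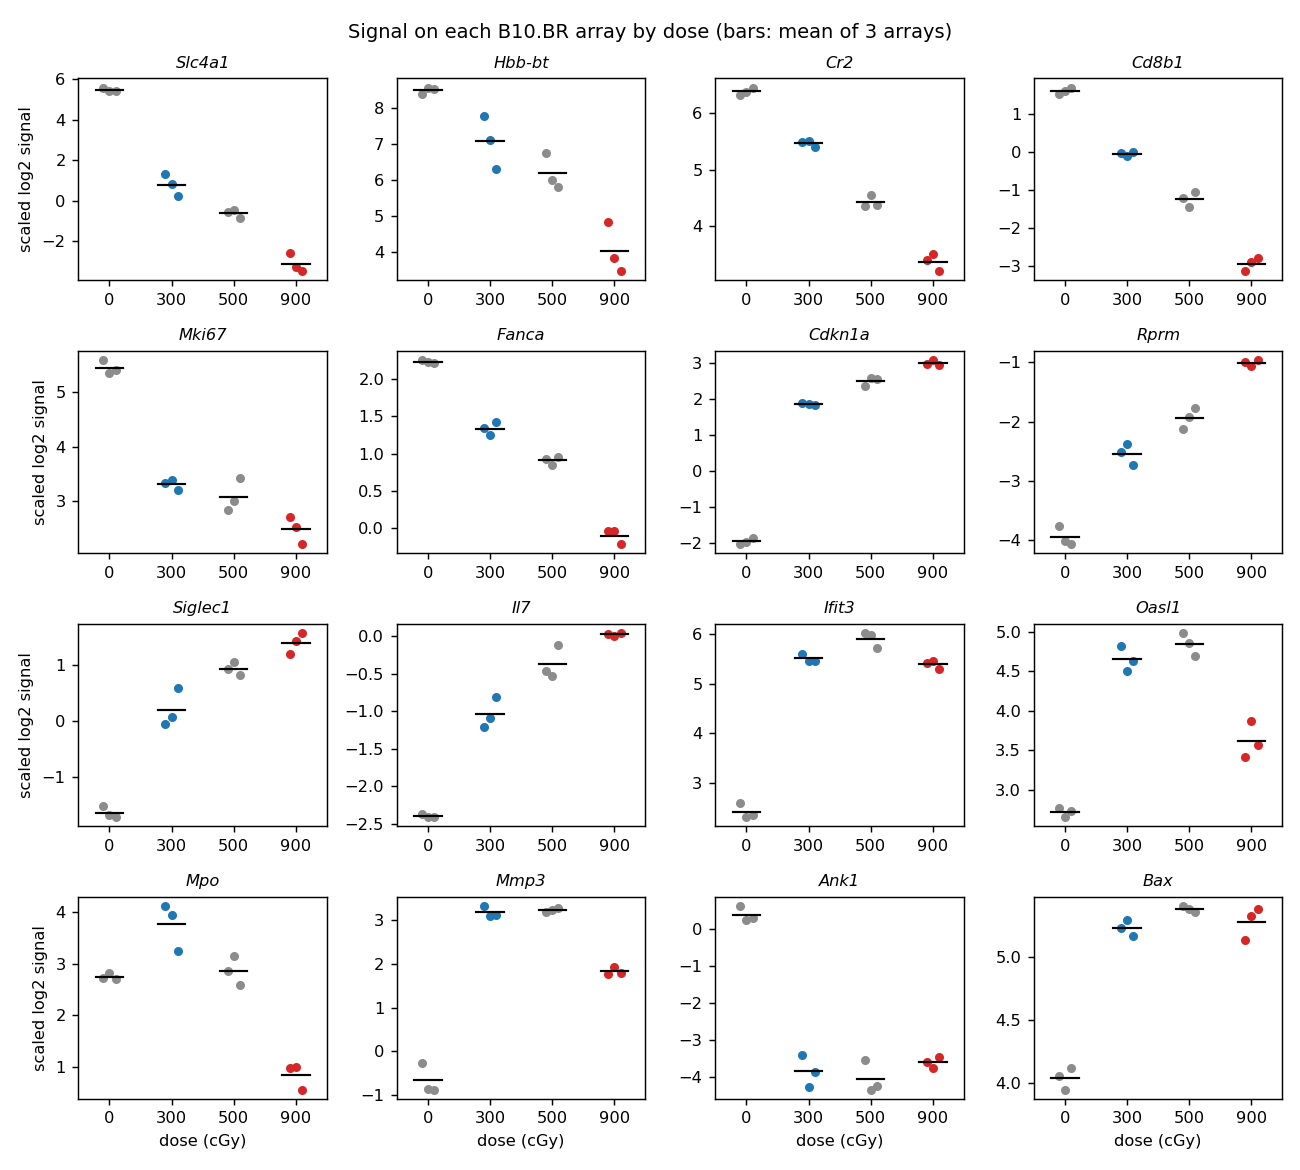
Scaled log2 signal (y axis) of 16 genes on each of the 12 B10.BR arrays by dose in cGy (x axis), with 900 cGy in red, 300 cGy in blue and the mean of 3 arrays as a bar. Slc4a1, Cr2, Cd8b1 and Fanca step down at every dose, Cdkn1a, Rprm, Siglec1 and Il7 step up, the 900 and 300 cGy arrays of Ifit3, Ank1 and Bax overlap, and Mpo, Oasl1 and Mmp3 have lower means at 900 than at 300 cGy and higher ones at 300 than at 0 cGy.

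B and T cell genes were graded almost throughout. Of 27 B cell genes 26 fell and none rose (median -1.52), and 24 of them fell stepwise through 0, 300, 500 and 900 cGy, beside 3.06% of all features. Of 28 T cell genes 27 fell and none rose (median -1.16), 20 of them stepwise. At 300 against 0 cGy the medians were -0.89 for the B cell and -0.91 for the T cell list, so that on the log2 scale the second step was not the smaller one. The slide block left 24 B cell and 26 T cell genes that fell. The single genes that did not pass were Ighm, the IgM heavy chain (0.12 ± 0.4), in the first list and Cd4 in the second, and Ighm, like the other exceptions to a list named in the text, was picked after its value was seen.

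Cr2, complement receptor 2 of mature B cells, was at 3.4, 3.52 and 3.21 at 900 cGy, against 5.49, 5.51 and 5.41 at 300 cGy. Its fall was 4.26-fold (-2.09 ± 0.101, adjusted p = 2.33e-10). Fcer2a, the low-affinity IgE receptor of follicular B cells, was at -2.57, -2.47 and -2.42 at 900 cGy, against -0.64, -0.42 and -0.04 at 300 cGy, a 4.36-fold fall (-2.12 ± 0.175). Pax5 and Ebf1, the factors that keep B cell identity, fell by 1.94 ± 0.17 and 1.92 ± 0.102. The Cr2 arrays of each dose lay below all arrays of the lower doses, with 6.32, 6.38 and 6.45 at 0 cGy and 4.36, 4.56 and 4.38 at 500 cGy.

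Among T cell genes the cytotoxic coreceptor fell furthest and the helper coreceptor did not pass. Cd8b1 was at -3.14, -2.89 and -2.8 at 900 cGy, against -0.02, -0.1 and 0 at 300 cGy, which is 7.47-fold lower (-2.9 ± 0.13, adjusted p = 6.8e-11). Cd8a, its partner chain, was at -1.35, -1.11 and -1.16 at 900 cGy, against 0.93, 0.94 and 0.95 at 300 cGy (-2.15 ± 0.0841). Cd4 was at 2.16, 2.14 and 2.01 at 900 cGy, against 2.21, 1.86 and 1.99 at 300 cGy, with overlapping arrays and a 95% interval from -0.13 to 0.29, and it was at 1.83, 1.83 and 2.02 at 0 cGy. Cd3e, part of the receptor of all T cells, lay between them with a difference of -1.29 ± 0.105, adjusted p = 1.38e-07. Lef1, a factor of naive T cells, fell by 1.97 ± 0.148, and Dapl1, among the 10 largest falls, was at -3.2, -2.54 and -2.86 at 900 cGy, against 0.18, 0.1 and 0.09 at 300 cGy. Foxp3, the factor of regulatory T cells, fell (-0.71 ± 0.097, adjusted p = 4.88e-05), and of the 15 regulatory T cell genes 7 fell and 2 rose (8 and 0 with the slide as a block). Foxp3 did not pass at 300 against 0 cGy, where its difference was -0.14 (adjusted p = 0.29). Of 21 NK and cytotoxic genes 5 fell (3 without 300 cGy replicate 2 and 2 under the block), beside 10.8% of all features. Eomes fell the most (-0.97 ± 0.129), while Ncr1, the NK receptor NKp46, was at -1.12, -0.88 and -0.41 at 900 cGy, against -0.94, -0.72 and -0.44 at 300 cGy, with overlapping arrays.

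MHC class II genes, through which B cells, dendritic cells and macrophages show peptides to helper T cells, fell in most cases. Of 14 genes 11 fell and 1, Cd86, rose (0.6 ± 0.103), with a median of -0.76 (8 and 1 under the slide block). For this list and the next ones, 10.8% of all features fell and 11.6% rose. H2-DMb2, a chaperone of peptide loading, was at -3.02, -2.73 and -2.69 at 900 cGy, against -0.97, -0.98 and -0.6 at 300 cGy. H2-Ob, a partner of that chaperone known mainly from B cells, was at 1.87, 1.8 and 2.11 at 900 cGy, against 3.22, 3.68 and 4.02 at 300 cGy. These 2 fell by 1.97 ± 0.186 and 1.71 ± 0.173, and the class II beta chain H2-Ab1, which other presenting cells carry too, by 0.76 ± 0.0949. Of 18 MHC class I genes, which nearly all cells express, 2 rose and 3 fell (1 without 900 cGy replicate 3 or 300 cGy replicate 1). These counts are near the shares of all features. The other 13 did not pass and lay within 2-fold, as did 59.2% of all features. No class I gene passed under the block. Among 21 dendritic cell genes 9 fell and 1 rose (9 and 0 under the block), and Cd8a, which some dendritic cells carry, is counted among the falls of this list and of the T cell list. Cd209a, the mouse DC-SIGN, was at -1.66, -1.82 and -1.69 at 900 cGy, against 0.12, 0.09 and 0 at 300 cGy (-1.79 ± 0.127, adjusted p = 2.97e-08), and Kmo, an enzyme of tryptophan breakdown, fell by 1.64 ± 0.131.

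Genes of dividing cells fell between 300 and 900 cGy as a body, with smaller differences than the lymphocyte genes. Of 29 cell cycle and mitosis genes 27 fell and none rose (median -0.83), and of 29 genes of replication licensing and DNA synthesis 24 fell (median -0.68). At 300 against 0 cGy the medians were -1.35 and -0.95. No cell cycle gene passed in limma at 500 against 300 cGy, where 1.6% of all features did and 3 of the list had an unadjusted p under 0.05. At 900 against 500 cGy 19 fell, beside 3.25% of all features. Since 500 cGy replicate 3 lay on the other slide, both steps mix slides. Within slides the cell cycle medians were -0.34 for 500 minus 300 cGy and -0.88 for 900 minus 500 cGy. In the slide block fit 25 cell cycle and 14 replication genes fell.

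Mki67, the proliferation antigen Ki-67, was at 2.7, 2.51 and 2.2 at 900 cGy, against 3.33, 3.39 and 3.19 at 300 cGy. That is 1.78-fold lower (-0.83 ± 0.159, adjusted p = 0.00103), with the groups apart. At 500 cGy it was at 2.82, 2.99 and 3.42. Replicates 1 and 2, on the slide of the 300 cGy arrays, lay below all of those. Replicate 3, on the slide of the 900 cGy arrays, lay above them. Ndc80, which ties kinetochores to the spindle, fell the most of the list, at -3.72, -3.05 and -3.6 at 900 cGy, against -2.19, -2.14 and -1.71 at 300 cGy (-1.44 ± 0.188, adjusted p = 2.98e-05). Ccna2, cyclin A2, was at 0.52, 0.33 and 0.07 at 900 cGy, against 1.61, 1.41 and 1.21 at 300 cGy (-1.11 ± 0.185), and Bub1, a spindle checkpoint kinase, at -2.63, -2.66 and -2.74 at 900 cGy, against -1.68, -1.47 and -1.55 at 300 cGy (-1.11 ± 0.164). E2f2, a transcription factor of the G1 to S transition, fell by 1.36 ± 0.169, Orc1, which marks replication origins, by 1.21 ± 0.199, and Mcm5, part of the replicative helicase, by 1.01 ± 0.113. Promoter stretches of Mki67, and of Cdk1, the mitotic kinase (-0.73 ± 0.209, picked for its motifs, with adjusted p = 0.0803 without 300 cGy replicate 1 and 0.0832 without 900 cGy replicate 3; a second probe of the gene gave -0.06 and did not pass, adjusted p = 0.958), carry TTTGAA, in capitals, the core of the element that represses cell cycle genes in resting cells.
Mki67 promoter, chr7:135716424-135716543, minus strand: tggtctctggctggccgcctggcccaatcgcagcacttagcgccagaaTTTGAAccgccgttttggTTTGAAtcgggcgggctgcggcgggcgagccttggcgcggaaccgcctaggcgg
Cdk1 promoter, chr10:69352913-69353032, minus strand: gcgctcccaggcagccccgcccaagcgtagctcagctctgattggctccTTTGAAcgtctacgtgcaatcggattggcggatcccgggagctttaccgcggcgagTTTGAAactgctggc
TTTGAA stood on either strand within 250 bases before the start in 9 of 25 cell cycle genes with a promoter in the table (36%), beside 16.3% of all 27025.

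DNA repair genes, many of which rise and fall with the cell cycle, fell too. Of 31 genes 18 fell and 1 rose (median -0.37), 7 fell with the slide as a block, and 11 fell without 300 cGy replicate 2. Fanca, of the Fanconi complex that repairs crosslinks, was at -0.04, -0.04 and -0.21 at 900 cGy, against 1.34, 1.25 and 1.42 at 300 cGy, a 2.7-fold fall (-1.43 ± 0.112, adjusted p = 8.18e-08). Its arrays at 0, 300, 500 and 900 cGy did not overlap. Fanci, another member of that pathway, fell by 0.96 ± 0.163 (adjusted p = 0.0645 under the block), and H2ax, the histone phosphorylated at breaks, by 0.94 ± 0.112.

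**Figure D3:**
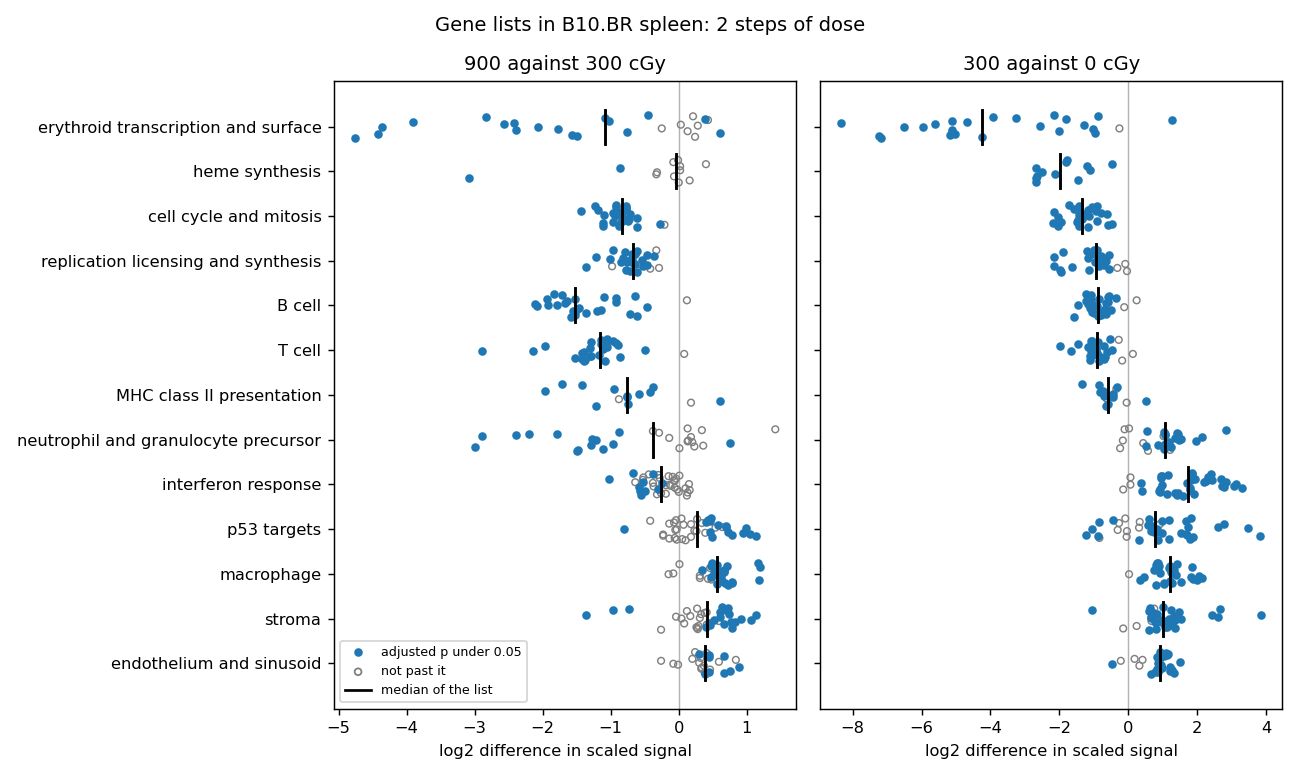
Log2 differences (x axes, with different ranges) of the members of 13 gene lists (y axis) at 900 against 300 cGy (left) and 300 against 0 cGy (right), filled where adjusted p was under 0.05, with the list's median as a bar. B and T cell lists lie below 0 on both sides (medians -1.52 and -1.16 at left, -0.89 and -0.91 at right), the interferon list lies near 0 at left (-0.25) and far above it at right (1.74), and the granulocyte list changes side (-0.38 and 1.06).

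The p53 targets held both graded and level genes. Of 40 genes 15 rose, 1 fell and 19 of the other 24 lay within 2-fold (median 0.27), where 11.6% of all features rose. Against 0 cGy 26 were already higher at 300 cGy (median 0.78, beside 18.7% of all features). Under the slide block 4 rose.

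Cdkn1a, the cell cycle inhibitor p21, was at 2.98, 3.08 and 2.96 at 900 cGy, against 1.9, 1.86 and 1.85 at 300 cGy. This was 2.2-fold higher (1.14 ± 0.0987, adjusted p = 2.71e-07), and the arrays stepped up without overlap, with -2.02, -1.97 and -1.86 at 0 cGy and 2.36, 2.59 and 2.56 at 500 cGy. Other Cdkn1a probes gave 0.9 (adjusted p = 0.0783) and 0.66 (0.191) and did not pass. Gdf15, a secreted stress cytokine, was at 3.96, 3.74 and 3.66 at 900 cGy, against 3.19, 2.62 and 2.59 at 300 cGy (0.99 ± 0.212, adjusted p = 0.00259). Ddit4l, an inhibitor of mTOR signalling, rose by 1.05 ± 0.156, but not past the threshold with the slide as a block (0.92, adjusted p = 0.0528). Bax, which permeabilises mitochondria, was at 5.13, 5.32 and 5.38 at 900 cGy, against 5.23, 5.29 and 5.16 at 300 cGy, with overlapping arrays and an interval from -0.12 to 0.23. Its rise against 0 cGy was 1.19 at 300 cGy. Ccng1, cyclin G1, rose a little (0.49 ± 0.131, adjusted p = 0.0114), and with the slide as a block its difference was 0.13 (adjusted p = 0.731). Without 300 cGy replicate 1 the adjusted p of Ccng1 was 0.0574.

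Mdm2, the ligase that degrades p53, was at 5.06, 4.8 and 4.9 at 900 cGy, against 4.31, 4.46 and 4.39 at 300 cGy, so that the groups did not overlap, but it did not pass (difference 0.54 ± 0.749, adjusted p = 0.669). The spread of this probe in the fit came from all 24 arrays, and with only the 12 B10.BR arrays the adjusted p was 0.00415. Trp53, the gene of p53 itself, was at -3.31, -2.82 and -3.05 at 900 cGy, against -2.33, -2.54 and -2.22 at 300 cGy, a fall of 1.62-fold (-0.7 ± 0.114, adjusted p = 0.000273). Rprm, a p53-induced gene of G2 arrest, was among the largest graded rises, at -1, -1.06 and -0.97 at 900 cGy, against -2.51, -2.38 and -2.73 at 300 cGy, or 2.89-fold (1.53 ± 0.16, adjusted p = 2.52e-06). Matn1, a cartilage matrix protein, was at 1.31, 0.91 and 0.84 at 900 cGy, against -0.11, -0.21 and -0.59 at 300 cGy, with -4.18, -4.24 and -4.64 at 0 cGy, and rose by 1.32 ± 0.172 between the 2 doses. Celf5, an RNA-binding protein, was at 0.31, -0.01 and 0.04 at 900 cGy, against -1.18, -1.25 and -1.67 at 300 cGy, 2.79-fold higher. A second Celf5 probe gave 0.98 and did not pass (adjusted p = 0.195). Rprm, Matn1 and Celf5 were not overlapping at any of the 4 doses. For Rprm and Celf5 this was the condition by which they were named.

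Macrophage genes rose further. Of 30 genes 22 rose and none fell (median 0.56), and 16 rose with the slide as a block. At 300 against 0 cGy 29 had risen (median 1.21). Siglec1, the sialic acid receptor of marginal metallophilic macrophages, was at 1.19, 1.43 and 1.56 at 900 cGy, against -0.07, 0.06 and 0.58 at 300 cGy, and rose 2.3-fold (1.2 ± 0.203, adjusted p = 0.00037). A second Siglec1 probe gave 0.78 and did not pass (adjusted p = 0.107). Cd14, the lipopolysaccharide coreceptor, was at 3.04, 2.98 and 3.15 at 900 cGy, against 1.84, 1.91 and 1.87 at 300 cGy, and most of its rise against 0 cGy lay above 300 cGy, with differences of 1.18 for 900 against 300 cGy and 0.33 for 300 against 0 cGy. Vsig4, a complement receptor of resident macrophages, rose by 1.16 ± 0.275, and with the slide as a block its adjusted p was 0.107. C1qa, the first complement component, was at 5.43, 5.33 and 5.4 at 900 cGy, against 4.82, 4.46 and 4.53 at 300 cGy (0.79 ± 0.134, adjusted p = 0.000401).

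Other genes known from macrophages did not rise. Of those that follow, Gpnmb and Fabp5 are not on the macrophage list counted above. Gpnmb, a lysosomal glycoprotein of phagocytes, was at 0.82, 0.99 and 0.96 at 900 cGy, against 1.12, 0.98 and 1.39 at 300 cGy, after -3.88, -3.96 and -4.06 at 0 cGy, so that a difference of 5.13 at 300 cGy was followed by one of -0.24 ± 0.342. Cd68, a lysosomal marker of the lineage, gave 0.31 ± 0.202 with overlapping arrays. Cd5l, secreted by red pulp macrophages, was at 7, 6.87 and 6.9 at 900 cGy, against 6.58, 6.37 and 6.52 at 300 cGy and did not pass (adjusted p = 0.096), but its groups did not overlap, and it passed under 5 alternatives (adjusted p from 0.00595 to 0.0436), the exocrine share as a covariate among them (0.0208). Cd163, the haptoglobin scavenger receptor, gave 0.48 ± 0.374, and passed with the slide as a block (1.88, adjusted p = 0.0163) and with only the 6 arrays (0.0332). Fabp5, a fatty acid carrier, went the other way, at 5, 5.13 and 5.38 at 900 cGy, against 5.72, 5.65 and 5.96 at 300 cGy, a fall of 0.61 ± 0.121 after a rise at 300 against 0 cGy of 2.19.

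Stromal and vascular genes rose in part. Of 37 stroma genes 17 rose and 3 fell (median 0.41), and of 24 genes of endothelium and sinusoids 9 rose and none fell (median 0.39), with 13 and 5 rising with the slide as a block. Among all features 11.6% rose and 10.8% fell. Mmp2, a collagen IV protease of fibroblasts, was at 2.61, 2.45 and 2.41 at 900 cGy, against 1.6, 1.33 and 1.16 at 300 cGy (1.13 ± 0.196, adjusted p = 0.000464). Cxcl12, the chemokine that holds blood precursors in their niche, was at 6.6, 6.63 and 6.48 at 900 cGy, against 5.89, 6.03 and 5.78 at 300 cGy (0.67 ± 0.111). Eng, the endothelial coreceptor endoglin, rose by 0.76 ± 0.144 (with the block, adjusted p = 0.0555), and Stab1, a scavenger receptor of sinusoids, by 0.66 ± 0.0937. Values are relative to each array's own signal, and cell numbers are not given in the sources used here.

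Growth factors of blood cells rose in 6 of 15 cases and fell in none (4 rose under the block), where 11.6% of all features rose. Il7, the survival factor of lymphocytes made by stroma, was at 0.03, 0 and 0.04 at 900 cGy, against -1.21, -1.09 and -0.81 at 300 cGy, and at -2.37, -2.41 and -2.41 at 0 cGy. It rose 2.08-fold (1.06 ± 0.113, adjusted p = 3.04e-06), and its 4 doses did not overlap. Of 38 cytokines and chemokines 9 rose and 10 fell, beside 11.6% and 10.8% of all features. With the slide as a block 1 rose and 4 fell, and without 300 cGy replicate 1 the falls numbered 6. Tnf was at -1.77, -1.57 and -1.4 at 900 cGy, against -0.97, -0.64 and -0.34 at 300 cGy (-0.93 ± 0.149, adjusted p = 0.000217), and Il12b, a subunit of interleukins 12 and 23, at -3.02, -2.71 and -2.46 at 900 cGy, against -2.16, -1.91 and -1.49 at 300 cGy (-0.88 ± 0.161, adjusted p = 0.000701). Both were higher at 300 than at 0 cGy, by 0.45 and 1.99. Cxcl5, a neutrophil attractant, rose (0.85 ± 0.137, with adjusted p = 0.117 under the block), and Ccl2, a monocyte attractant, was at -0.82, -1.1 and -0.76 at 900 cGy, against -0.96, -0.95 and -0.65 at 300 cGy with overlapping arrays. Ccl8 rose in the fit (0.97 ± 0.258, adjusted p = 0.0108), but its difference had the opposite sign with the slide as a block (-0.13, adjusted p = 0.874).

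Interferon-responsive genes, which cells switch on when they sense foreign or misplaced nucleic acid, stood at the 300 cGy level or a little below it. Of 38 genes 35 were higher at 300 than at 0 cGy (median 1.74). At 900 against 300 cGy none rose and 10 fell (median -0.25), beside 11.6% and 10.8% of all features. Of the other 28 genes 27 lay within 2-fold. In the slide block fit 1 fell. Without 900 cGy replicate 1 the number that fell was 2, without 900 cGy replicate 3 it was 5, without 300 cGy replicate 2 it was 6 and without 300 cGy replicate 3 it was 4. By its medians the list was highest at 500 cGy, with 0.23 at 500 against 300 cGy and -0.48 at 900 against 500 cGy. Only 1 gene passed as higher at 500 against 300 cGy, beside 0.67% of all features, and 10 had an unadjusted p under 0.05. At 900 against 500 cGy 17 genes fell, beside 3.25% of all features.

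Ifit3, an antiviral protein that binds viral RNA, was at 5.42, 5.46 and 5.29 at 900 cGy, against 5.6, 5.46 and 5.46 at 300 cGy, and at 2.6, 2.33 and 2.37 at 0 cGy. The 95% interval of its difference ran from -0.51 to 0.27. Ifit3 has a near-identical copy, so that its probe may read both. Ifi44 was at 2.69, 2.76 and 2.71 at 900 cGy, against 2.62, 2.53 and 2.72 at 300 cGy, with 3.23, 3.4 and 3.32 at 500 cGy, above both. Irf7, the factor that amplifies the response, was at 2.41, 2.52 and 2.79 at 900 cGy, against 2.33, 2.17 and 2.79 at 300 cGy, with overlapping arrays. Isg15, a ubiquitin-like modifier (picked for its promoter), gave -0.38 ± 0.178. The promoters of Ifit3 and Isg15 are printed as those of 2 list members that did not pass at 900 against 300 cGy, with GAAA, any 2 bases and GAAA, or its reverse complement, the repeat that interferon-activated factors bind, in capitals, and in Isg15 the matches overlap into 1 run.
Ifit3 promoter, chr19:34583335-34583454, plus strand: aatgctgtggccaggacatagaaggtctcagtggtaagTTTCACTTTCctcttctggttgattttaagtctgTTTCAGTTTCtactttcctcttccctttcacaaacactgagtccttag
Isg15 promoter, chr4:156200826-156200945, minus strand: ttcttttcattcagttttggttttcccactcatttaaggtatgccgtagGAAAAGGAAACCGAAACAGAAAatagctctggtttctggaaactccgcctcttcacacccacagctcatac
The repeat stood on either strand in 12 of 27 interferon genes with a promoter in the table (44.4%), and in 821 of all 27025 promoters (3.04%).

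The genes of the list that fell were led by Oasl1, a translational brake on Irf7, at 3.42, 3.87 and 3.57 at 900 cGy, against 4.82, 4.5 and 4.63 at 300 cGy (-1.03 ± 0.174, adjusted p = 0.000367), which was higher at 300 than at 0 cGy by 1.93. With the slide as a block its adjusted p was 0.075. Zbp1, a sensor of left-handed nucleic acid, was at 2.37, 2.6 and 2.38 at 900 cGy, against 3.17, 3.12 and 3.09 at 300 cGy (-0.67 ± 0.155, adjusted p = 0.00435), and Ifit1 at 2.25, 2.71 and 2.18 at 900 cGy, against 2.99, 2.95 and 2.96 at 300 cGy (-0.59 ± 0.17, adjusted p = 0.018). A second Zbp1 probe gave -0.5 and did not pass (adjusted p = 0.0977). Without 900 cGy replicate 1 or 3 the adjusted p of Ifit1 was 0.0745 and 0.0864, with the slide as a block it was 0.236, and with only the 6 arrays 0.06. Gbp2b, a guanylate-binding protein induced by interferon gamma and not on the interferon list, was higher, at -0.8, -0.95 and -0.38 at 900 cGy, against -3.14, -3 and -2.23 at 300 cGy, a rise of 4.23-fold (2.08 ± 0.237, adjusted p = 7.14e-06).

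Many genes on the list of neutrophils and their precursors were higher at 300 than at 0 cGy, and many were lower at 900 than at 300 cGy. Of 27 genes of neutrophils and their precursors 19 were higher at 300 against 0 cGy, and 13 fell and 1 rose at 900 against 300 cGy. Without 900 cGy replicate 3 the number that fell was 7, without 300 cGy replicate 1 it was 7 and without 300 cGy replicate 2 it was 8. With the slide as a block 1 fell and 1 rose. The largest falls of the list were those of Ctsg, Mpo, Ms4a3 and Prtn3. Ctsg, cathepsin G, was at 0.19, 0.19 and -0.17 at 900 cGy, against 3.41, 3.24 and 2.54 at 300 cGy, or 7.98-fold lower (-3 ± 0.463, adjusted p = 0.000159). Mpo, myeloperoxidase, was at 0.99, 1.01 and 0.57 at 900 cGy, against 4.11, 3.94 and 3.24 at 300 cGy, or 7.49-fold lower (-2.9 ± 0.418, adjusted p = 7.98e-05). At 0 cGy Mpo was at 2.72, 2.81 and 2.7, and its difference of 1.02 at 300 against 0 cGy did not pass (adjusted p = 0.0586). Prtn3, proteinase 3, was at -3.53, -3.64 and -3.86 at 900 cGy, against -1.13, -1.42 and -1.89 at 300 cGy (-2.2 ± 0.284), and Ms4a3, a marker of granulocyte and monocyte progenitors, at -1.08, -1.35 and -1.69 at 900 cGy, against 1.4, 1.22 and 0.48 at 300 cGy (-2.4 ± 0.422). The 900 and 300 cGy arrays of these 4 did not overlap, which for Ctsg and Mpo was a condition of their choice. Such a separation downwards was found for 17% of all features.

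Under the slide block the adjusted p was 0.0742 for Ctsg, 0.0515 for Mpo and 0.09 for Ms4a3, with differences of -2.37, -2.48 and -2.09. S100a8, the calprotectin subunit that fills mature neutrophils, was at 5.09, 5.33 and 4.72 at 900 cGy, against 6.17, 6.08 and 5.52 at 300 cGy (-0.88 ± 0.249, adjusted p = 0.0164), and its adjusted p was 0.0836 without 900 cGy replicate 3, 0.0684 without 300 cGy replicate 1 and 0.0635 without 300 cGy replicate 2. With the slide as a block S100a8 gave -0.73 (adjusted p = 0.37). Mcpt8, the basophil protease, was at -5.5, -5.92 and -5.86 at 900 cGy, against -3.02, -3.78 and -4.17 at 300 cGy (-2.1 ± 0.395, adjusted p = 0.000869, and 0.192 with the block). Mmp3, the fibroblast protease stromelysin, shared the pattern: it was at 1.77, 1.93 and 1.79 at 900 cGy, against 3.33, 3.1 and 3.13 at 300 cGy, with -0.26, -0.87 and -0.88 at 0 cGy (-1.36 ± 0.385, adjusted p = 0.0162), with adjusted p = 0.05 without 900 cGy replicate 1 and 0.259 with the block.

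Because the steps below and above 300 cGy share arrays, features that respond early were also chosen on other arrays, those of BALB.K at 300 against 0 cGy, which do not enter the B10.BR comparison except through the spread of the joint fit. The 3 BALB.K 0 cGy arrays and 1 of the BALB.K 300 cGy arrays did lie on the slide of the B10.BR 900 cGy arrays. A slide effect on a probe can therefore enter both the choice and the counts. At least 2-fold changes passed in BALB.K for 15.4% of all features. Of 2148 features higher by that rule, 813 (37.8%) rose and 79 (3.68%) fell in B10.BR at 900 against 300 cGy, beside 11.6% and 10.8% of all features. A further 774 (36%) did not pass and lay within 2-fold, a smaller share than the 59.2% of all features. The median difference was 0.41. Of 2406 features at least 2-fold lower in BALB.K, 528 (21.9%) fell and 92 (3.82%) rose, and the median was -0.12. Of these 2406, 1199 (49.8%) lay within 2-fold without passing, again a smaller share than the 59.2% of all features.

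The step to the highest dose was then set against that of BALB.K, 800 against 300 cGy, in the same fit. The doses differ, and no slide held the highest doses of both strains. The difference of the steps passed for 1519 features (5.14%), 741 with a higher and 778 with a lower value in B10.BR, but for 52 with the slide as a block and 450 with it as a random block. Red cell genes were among those with lower values. Slc4a1 fell by 3.91 ± 0.301 in B10.BR, against -0.91 ± 0.301 in BALB.K, a difference of -3 ± 0.426 (adjusted p = 0.00127). Hbb-bt gave -3.03 in B10.BR and -0.36 in BALB.K. Mpo gave -2.9 in B10.BR and -0.61 in BALB.K (difference adjusted p = 0.0337), and Prtn3 -2.2 and 0.08 (0.00626). Il7 rose in B10.BR by 1.06, against 0.05 in BALB.K (0.00318), and Irf7 gave 0.15 in B10.BR and a rise of 1.76 in BALB.K (0.0128). Some B cell genes fell less in B10.BR, with Ebf1 at -1.92, against -2.8 in BALB.K (0.00411), and Cr2 at -2.09, against -2.87 (0.00791). Of 27 B cell genes 6 had such a higher value and none a lower one, beside 2.51% and 2.63% of all features.

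**Figure D4:**
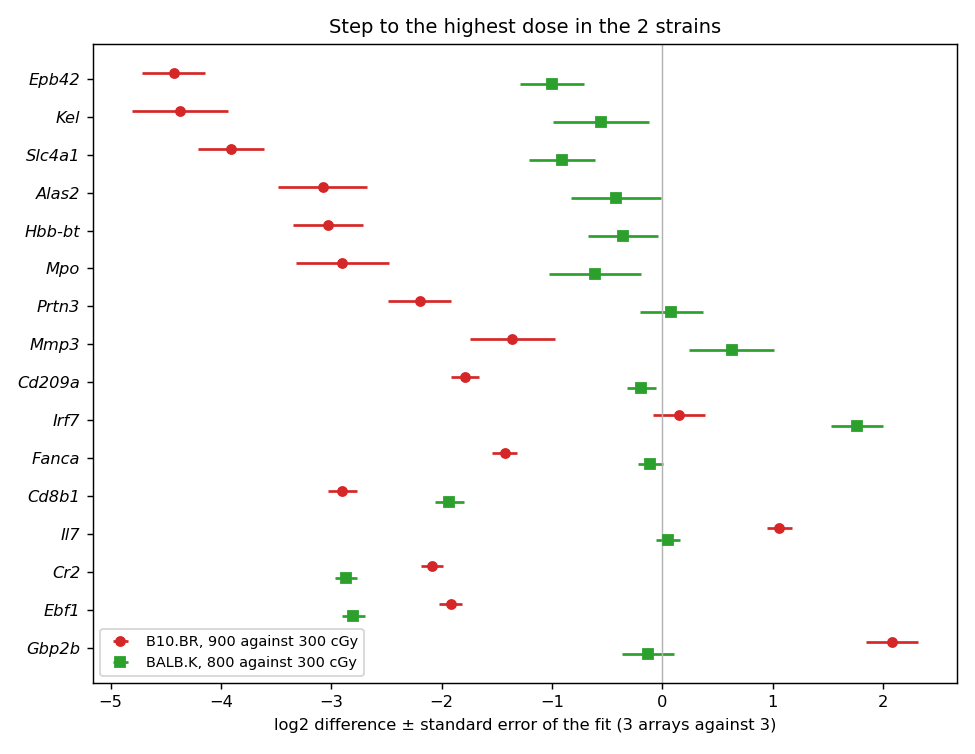
Log2 difference ± standard error of the fit (x axis, 3 arrays against 3) of 16 genes (y axis) for B10.BR at 900 against 300 cGy (red circles) and BALB.K at 800 against 300 cGy (green squares). Slc4a1 lies at -3.91 in B10.BR and -0.91 in BALB.K, and Cr2 at -2.09 and -2.87. Epb42 and Kel were not well above background on any B10.BR array at 900 cGy, so that their circles are not exact.

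Reg genes, which encode secreted lectins of injured pancreas and gut, were among the largest rises of the comparison. Reg3b was at 1.94, 1.51 and 1.87 at 900 cGy, against -2.72, -4.16 and -8.67 at 300 cGy (6.96 ± 1.57, adjusted p = 0.00363), and Reg2 at 3.67, 3.39 and 2.7 at 900 cGy, against -0.69, -1.78 and -7.07 at 300 cGy (6.44 ± 1.82, adjusted p = 0.0157). Both were well above background on 2 of the 3 arrays at 300 cGy. Reg3a was not well above background on any 300 cGy array and was at least 13.1-fold higher at 900 cGy (adjusted p = 0.000379). At 300 cGy Reg3b was lowest on replicate 3, the array with the least pancreas signal. On replicates 1 and 2, whose pancreas share was close to that at 900 cGy, it was below all 3 arrays at 900 cGy. Gp2, a zymogen granule protein without such a rise, was at 4.06, 4.24 and 4.52 at 900 cGy, against 4.28, 3.83 and -0.35 at 300 cGy. The groups also lay on different slides, and the part of pancreas tissue in the Reg differences was not tested. Under the slide block Reg3b gave 3.28 (adjusted p = 0.52), Reg2 0.07 (0.994) and Reg3a 3.77 (0.155). Reg2 did not pass without 300 cGy replicate 3 (adjusted p = 0.0964) or without 900 cGy replicate 1 (0.0509).

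**Figure D5:**
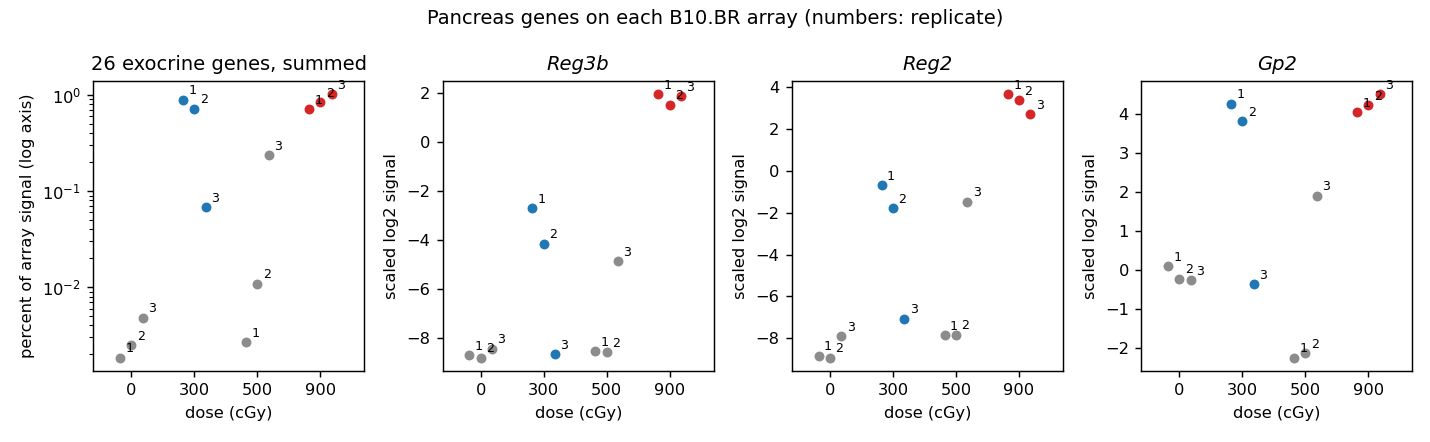
Share of the array's signal taken by 26 exocrine pancreas genes (left, percent, log axis) and scaled log2 signal of Reg3b, Reg2 and Gp2 on each of the 12 B10.BR arrays by dose in cGy, with replicate numbers, 900 cGy in red and 300 cGy in blue. Reg3b lies at 1.94, 1.51 and 1.87 at 900 cGy and at -2.72, -4.16 and -8.67 at 300 cGy, where replicate 3 also has the lowest pancreas share.

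Part of the largest rises were of probes near background. Kncn was at -6.26, -5.52 and -5.38 at 900 cGy, against -8.81, -8.41 and -7.29 at 300 cGy, and Lrfn2 at -5.08, -5.18 and -4.95 at 900 cGy, against -8.5, -6.36 and -6.54 at 300 cGy, neither well above background on a 300 cGy array, so that the rises can only be bounded, at least 1.58-fold for Kncn and at least 2.47-fold for Lrfn2. Both lost the call with the slide as a block (adjusted p = 0.643 for Kncn and 0.246 for Lrfn2). Among brighter probes, Nat8, an acetyltransferase, was at 0.21, 0.16 and 0.33 at 900 cGy, against -1.11, -1.26 and -1.38 at 300 cGy, a rise of 2.8-fold (1.49 ± 0.186, adjusted p = 2.01e-05), and Cys1, a protein of the primary cilium, at 1.72, 1.84 and 1.85 at 900 cGy, against 0.26, 0.26 and 0.22 at 300 cGy (1.56 ± 0.353, adjusted p = 0.00383, and 0.0595 under the block).

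The remaining lists held few or mixed calls, to be read beside the 11.6% of all features that rose and the 10.8% that fell. Megakaryocyte and platelet genes had risen by 300 cGy (19 of 23) and only 2 rose further (none under the block), with Pf4, platelet factor 4, at 6.1, 5.93 and 5.62 at 900 cGy, against 6.11, 6.07 and 5.55 at 300 cGy. Of 24 genes of oxidative stress 7 rose and 1 fell, led by Gpx3, the extracellular glutathione peroxidase (1.03 ± 0.231, adjusted p = 0.00346). Of 28 genes of lysosomes and lipid handling 11 rose (6 without 900 cGy replicate 1) and 1 fell, and of 16 of heme and iron recycling 6 rose. Of 29 apoptosis regulators 4 were higher (2 without 900 cGy replicate 1 or 300 cGy replicate 2 or 3) and 5 lower (3 without 300 cGy replicate 3). These shares were not far from those of all features, and under the block 2 were higher and 2 lower. The death promoter Bik was higher (0.81 ± 0.127) and the survival factor Bcl2 lower (-0.61 ± 0.124, with adjusted p = 0.126 under the block). Myc, a growth regulator among the immediate early genes, fell stepwise, at -0.12, -0.03 and -0.42 at 900 cGy, against 1.12, 1.19 and 1.05 at 300 cGy (-1.31 ± 0.141, adjusted p = 3.38e-06). Ribosomal protein genes fell in 9 of 27 cases (median -0.23). Respiratory chain genes were level: 2 of 29 fell, and all 27 others lay within 2-fold, with none passing under the block. Of 16 plasma cell genes 3 rose (0 without 900 cGy replicate 1 or 300 cGy replicate 3, and 1 without 300 cGy replicate 2) and 1 fell, of 13 mast cell and basophil genes 2 rose and 2 fell, and of 14 adipocyte genes 3 rose (1 without 900 cGy replicate 1). Under the block the numbers that rose and fell were 0 and 2 for plasma cells, 0 and 0 for mast cells and basophils and 1 and 0 for adipocytes. None of 10 islet genes passed in limma (3 at an unadjusted p under 0.05), and of 15 acute phase and Reg genes 5 rose and 1 fell. Under the slide block 4 genes of oxidative stress, 2 of lysosomes, 3 of iron recycling and 0 of the acute phase list rose, and 3 ribosomal protein genes fell.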

How the data were processed

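Spleen RNA was measured on 24 single-colour Agilent arrays, 3 per group, each from a pool of 3 mice. The authors deposited scanner files with spot intensity values extracted by Agilent Feature Extraction 10.5.1.1, per the file headers, and a table of log2 values that tracked the differences between arrays of the scanner files. Feature Extraction had subtracted background within each array, per the file headers.

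The log2 of the processed intensity minus each array's 75th percentile of it was used. Control spots and spots marked as outliers were left out, and replicate spots were averaged. Probes well above background on all 3 arrays of at least 1 group were kept, 42316 of 55681, and each gene was read from its brightest kept probe. This left 29531 features, and 19824 carried a RefSeq symbol. limma 3.58.1 in R 4.3.3 fitted 8 group means over 24 arrays (lmFit and eBayes), and p-values were adjusted by the method of Benjamini and Hochberg over all features. All adjusted p-values in the text are limma's and two-sided. A bound on a fold sets the brighter group's mean against the higher, on each array, of the dimmer probe's signal and the lowest signal among probes well above background. The number of arrays limits the precision. No source used here says whether pools of a group were irradiated separately, so that p-values measure the spread between pools only. On simulated data over 29531 features the same fit recovered 70 of 100 genes changed by 1 on the log2 scale and 85 of 100 changed by 2, with 16 false calls. The simulated noise was normal, independent between features and free of a slide effect, and far fewer features were changed than passed in the real data. The simulation therefore says nothing about errors from the slide or from correlated genes.

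Genes were named by rule: the 10 largest rises and falls with groups apart, up to 4 called members of each list, genes level between 300 and 900 cGy with the largest change from 0 cGy (8 each way), graded genes (6 each way), strain differences (4 each way) and a fixed set of marker genes, of which part are given. Of the 34 lists, 791 of 816 members were tested. The members and lists were chosen with earlier results of these data known. Genes named for groups apart, for grading or for a level step meet that condition by choice, so that it is no result for them. Promoter sequences came from RefSeq. Alternatives covered scaling, background correction, dim probes, marked spots, probes of a gene, the arrays fitted, moderation, slide, replicate number, pancreas signal, the deposited log2 table and each array left out.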

Additional observations from a re-analysis of the deposited data

Results flagged for a closer look

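The step from 300 cGy to the highest dose differed between the strains by an interaction term of the limma fit for 1519 features. All values here are the B10.BR step (900 minus 300 cGy) minus the BALB.K step (800 minus 300 cGy) on the log2 scale, for genes named in the text whose difference had an adjusted p under 0.05. Among red cell genes the values were -3.81 for Kel, -3.43 for Epb42, -3 for Slc4a1, -2.67 for Hbb-bt, -2.66 for Alas2, -2.24 for Ahsp and -1.53 for Hba-a1. Kel and Epb42 were not well above background on any B10.BR array at 900 cGy, and Ahsp was so on 1 of 3, so that the sizes given for these are not exact. Granule and protease genes gave -2.3 for Mpo, -2.28 for Prtn3 and -1.99 for Mmp3. Interferon-related genes gave -1.62 for Irf7 and -1.19 for Oasl1, against 2.22 for Gbp2b. Genes of repair, replication and damage signalling gave -1.32 for Fanca, -0.75 for Mcm5, -0.63 for H2ax and -0.62 for Trp53. The B cell genes Ebf1 (0.88), Ms4a1 (0.88) and Cr2 (0.78) and the class II gene H2-Ob (0.86) had positive values, that is, a smaller fall in B10.BR. Of 14 class II genes 1 passed with a higher and 1 with a lower value (median 0.03). The remaining values were -1.6 for Cd209a, -1.07 for Cd68, -0.97 for Cd8b1, 1.01 for Il7 and 0.86 for Cxcl5. The highest doses differ between the strains (900 and 800 cGy), and no slide held both, so that strain, dose and slide cannot be told apart in full. With the slide as a block 52 features passed.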

How the results depend on the processing

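For 900 against 300 cGy, 6610 features passed, and this count kept within 1.5-fold under the alternatives except these. Scaling on the 10 spike-in probes gave 939 features (440 higher, 499 lower), with 577 past 2-fold. A fit to only the 6 arrays gave 3883, 2139 higher and 1744 lower. The slide as a block gave 2582, 1262 higher and 1320 lower. The count at least 2-fold was 341 with normexp background correction and 587 with features well above background on all 24 arrays, which tests fewer features. The strain difference (1519 features) gave 3412 with median scaling, 561 with spike-in scaling, 52 with the slide as a block, 450 with the slide as a random block, and 738 to 1148 when 1 array was left out. Of features higher early in BALB.K, 813 rose in B10.BR, but 140 with spike-in scaling, 490 with normexp and 499 with the slide as a block, and 79 fell, but 6 with spike-in scaling, 23 with the slide as a block and 50 with it as a random block. Of those lower early in BALB.K, 528 fell, but 151 with spike-in scaling and 349 with the slide as a block, and 92 rose, but 60 with median scaling, 11 with spike-in scaling, 46 with normexp, 19 with the slide as a block, 51 with it as a random block, and 52 to 93 when 1 array was left out. Ccl8 reversed with the slide as a block (-0.13). Of 113 genes named, 84 kept direction and call with the slide as a block, 86 with spike-in scaling and 105 with the 6 arrays. The causes were not tested.

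Replicate numbers were not treated as pairs in the main fit. The correlations of same-numbered deviations were 0.2, 0.0495 and 0.297, and those of differently numbered ones ran from -0.272 to 0.0815. A weak pairing by number is therefore possible. With the replicate number as a block 6833 features passed, 3561 higher and 3272 lower, 905 at least 2-fold and 1659 for the strain difference, and all 113 named genes kept their call. Restricting the fit to features well above background on all 6 arrays was chosen after seeing the data. Signal near background limits 3 erythroid genes, for which only bounds can be given at 900 cGy.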
